A study of Homo sapiens with 20 samples.

Results

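The spliceosomal small nuclear RNA (snRNA) genes described here are the rows of the count table whose symbol begins with RNU or RNVU and that held enough counts to be tested. The table holds 1831 such rows, of which 1285 had no count in any library, and 49 passed the filter among 13729 tested genes of 58787 in the table. Membership thus rested on the symbol and on the counts themselves, through a filter that asks for a level of about 1.88 CPM in at least 4 libraries, where CPM are counts of a gene per 1000000 counts of its library. By type, 8 members were U1 genes, 2 were U2, 5 were U4, 3 were U5 and 26 were U6, and 3 belonged to the minor spliceosome. The remaining 2 were U7 rows, which carry the prefix although U7 acts in histone mRNA processing and not in splicing. Of the 49 members, 36 (73.5%) are named as pseudogenes.

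IMR-32 cells, a human neuroblastoma line labelled wild type, were harvested 24 h after compound was added and gave 4 libraries in each of 5 groups. One group received the combination of Dyngo-4a and prexasertib, whose doses within it the labels do not give. The other treated groups received prexasertib at 2 nM, or Dyngo-4a alone at 1 µM, called the low dose, or at 2.26 µM, called the high dose. The controls received DMSO, the solvent. Prexasertib inhibits the checkpoint kinase CHK1, Dyngo-4a blocks dynamins, the GTPases that pinch off endocytic vesicles, and the title of the series concerns joint inhibition of CHK1 and the nuclease MUS81. Whether libraries of 1 group were grown as separate cultures is not stated in the labels. The p-values therefore reflect only how these libraries vary, which may be technical. All groups were grown from a single cell line, so they model that line only.

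The spliceosome removes introns from pre-mRNA with 5 RNA-protein particles. U1 pairs with the 5′ splice site and U2 with the branch point, U4 holds U6 inactive until the complex is activated, U6 then replaces U1 at the splice site and forms the catalytic centre, and U5 aligns the exons. RNA polymerase II makes U1, U2, U4 and U5 from short genes with their own promoters, the Integrator complex cuts their 3′ ends, and a ring of Sm proteins is loaded in the cytoplasm. U6 and U6atac are made by RNA polymerase III. Mature snRNAs carry no poly(A) tail, and the human genome holds many inactive copies of each. The libraries were 3′ mRNA libraries, which prime on runs of A, so the counts describe the snRNA-derived RNA that this chemistry captured and not the pool of mature snRNA.

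Levels were low, and several functional genes had no counts. RNU2-1, RNU2-2P, RNU11, RNU12, RNU1-3 and RNU1-4 were listed at 0 in all 20 libraries, as were the other noncoding RNAs RN7SK, RMRP and RPPH1, which every cell uses. RNU1-1 held 10 counts over all libraries. Of the 49 members, 42 had a mean level under 10 CPM. Per 100 bases of gene length, RNU4ATAC stood at 706 CPM and RNU6-758P at 168 CPM, against 63.9 CPM for RNVU1-25, the member with the next highest level.

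The U1 copies that carry the results are shown first, because those that rose in the combination and those that fell in the high dose differ in sequence. Capitals mark the 9 bases complementary to the 5′ splice site, and all sequences are from GENCODE 29 on GRCh38. RNU1-1 is a reference copy at chr1:16514122-16514285 (minus strand). RNVU1-28, at chr1:144560666-144560829 (minus), and RNVU1-31, at chr1:145465617-145465780 (minus), lie outside annotated genes. RNU1-11P, at chr6:13214056-13214219 (plus), lies in an intron of PHACTR1. RNVU1-25, at chr1:146409903-146410062 (plus), lies outside annotated genes, and RNVU1-30, at chr1:149636766-149636929 (plus), lies in an intron of LINC00869. Neither of these last copies holds the 9 bases, and both are therefore all in lower case.
RNU1-1: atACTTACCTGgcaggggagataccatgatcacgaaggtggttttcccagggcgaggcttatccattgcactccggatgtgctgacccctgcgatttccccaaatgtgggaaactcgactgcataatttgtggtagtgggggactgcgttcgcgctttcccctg
RNVU1-28: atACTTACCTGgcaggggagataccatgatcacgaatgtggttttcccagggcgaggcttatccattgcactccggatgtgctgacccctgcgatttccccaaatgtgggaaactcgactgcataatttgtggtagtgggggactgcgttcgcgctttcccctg
RNVU1-31: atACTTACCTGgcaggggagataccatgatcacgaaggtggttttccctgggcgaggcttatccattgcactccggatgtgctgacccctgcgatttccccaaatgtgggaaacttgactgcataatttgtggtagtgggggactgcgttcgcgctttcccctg
RNU1-11P: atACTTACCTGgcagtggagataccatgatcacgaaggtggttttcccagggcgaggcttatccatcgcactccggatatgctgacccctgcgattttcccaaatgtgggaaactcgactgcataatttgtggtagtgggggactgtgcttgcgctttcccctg
RNVU1-25: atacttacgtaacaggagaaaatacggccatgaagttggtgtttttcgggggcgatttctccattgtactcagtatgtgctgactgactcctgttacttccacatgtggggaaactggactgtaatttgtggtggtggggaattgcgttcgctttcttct
RNVU1-30: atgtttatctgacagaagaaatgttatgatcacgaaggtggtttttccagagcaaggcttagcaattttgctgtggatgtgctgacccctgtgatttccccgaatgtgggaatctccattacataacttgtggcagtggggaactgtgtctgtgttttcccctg

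Shown next are RNU4-82P, the U4 copy with the smallest p-value in the combination, beside its reference copy, and RNU6-758P, a U6 row whose level was high and variable. RNU4-1 is at chr12:120293097-120293237 (minus), outside annotated genes, and RNU4-82P is at chr9:124887410-124887549 (minus), in an intron of GOLGA1. In the U4 copies, capitals mark a block of 60 bases that they share. After that block RNU4-82P runs on in A and then departs from U4, and its longest run of A is 10 bases. RNU6-11P, on chromosome 7, lies outside annotated genes. RNU6-37P, in an intron of KIF1B on chromosome 1, has exactly the sequence of RNU6-11P. RNU6-758P is at chr16:75286712-75286800 (minus), outside annotated genes, and capitals mark a run of 12 A.
RNU4-1: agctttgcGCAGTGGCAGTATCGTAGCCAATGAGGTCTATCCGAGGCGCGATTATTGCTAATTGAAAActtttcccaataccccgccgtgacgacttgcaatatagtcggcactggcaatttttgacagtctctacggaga
RNU4-82P: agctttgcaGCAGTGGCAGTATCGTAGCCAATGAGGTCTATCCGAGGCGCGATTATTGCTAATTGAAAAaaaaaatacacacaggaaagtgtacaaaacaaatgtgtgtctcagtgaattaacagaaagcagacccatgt
RNU6-758P: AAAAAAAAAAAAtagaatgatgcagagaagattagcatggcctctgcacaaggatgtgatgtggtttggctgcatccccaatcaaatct

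Of the other members described, RNVU1-19 (chr1:120850819-120850985, minus), RNVU1-26 (chr1:144523860-144524021, minus), RNU4-2 (chr12:120291763-120291903, minus), RNU2-63P (chr2:88016354-88016547, minus) and RNU6ATAC (chr9:134164439-134164564, minus) lie outside annotated genes. RNU5A-8P (chr1:210374154-210374267, minus), RNU5F-1 (chr1:44721786-44721902, minus) and RNU6-358P (chr5:31820564-31820638, minus) lie in introns of HHAT, ARMH1 and PDZD2 on the other strand. RNU4ATAC (chr2:121530881-121531007, plus) lies in an intron of CLASP1-AS1 and, on the other strand, of CLASP1.

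Because copies share sequence, a read can match several of them. Of the 49 members, 19 shared at least 1 stretch of 50 bases with another annotated gene, and RNU6-11P, RNU6-37P and RNU6-8 shared every such stretch with others. The sources used here do not give how reads matching several places were assigned, so for these rows the gene of origin cannot be told apart from its copies. The strand setting of the counting is not given either, so reads of a surrounding or antisense gene cannot be told apart from those of a member.

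Total counts ran from 3960885 to 6537843 per library. The combination libraries held counts for 19428 to 19951 genes, against 18122 to 19223 in the DMSO libraries, and whether that wider detection played a part in the results below was not tested. In every group, replicates 1 and 3 stood apart from replicates 2 and 4 on the second principal component, which held 11.9% of the variance. The labels put all libraries in 1 batch, so this split has no named source, and results are also given within each set. The neuroblast marker HAND2 stood at 488 to 867 CPM, whereas the Schwann cell marker SOX10, the fibroblast marker PRRX1 and the T cell marker CD3E were at 0 throughout. TH, the enzyme that starts catecholamine synthesis, was low at 0 to 3.27 CPM. In bulk libraries, fewer cells with an RNA and less of it per cell cannot be told apart.

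The combination of Dyngo-4a and prexasertib gave the broadest change among the snRNA rows. Relative to DMSO, 13 of the 49 members were higher and 1 was lower (edgeR quasi-likelihood test, adjusted p under 0.05 by Benjamini-Hochberg over all tested genes), where 6.3% of all tested genes were called, 3.47% higher and 2.83% lower. Of the 13, RNVU1-19 and RNU6-358P passed the filter only through the combination libraries, so they had to differ, and their difference is described without a test. Of the 47 members that pass without those libraries, 11 were higher and 1 lower, or 25.5%, where 6.19% of the 13463 genes that pass in the same way were called, 3.3% higher and 2.89% lower. The 11 were 3 of 7 U1 genes, 3 of 5 U4, 2 of 3 U5, 2 of 25 U6 and 1 of 3 of the minor spliceosome, whereas neither U2 gene and neither U7 row was called higher. The median log2 fold change was 0.20 over the 47 members and 0.00 over all tested genes. All combination libraries lay above all DMSO libraries for 12 of the 47 and below them for 1, where 5.66% and 5.23% of all tested genes did so. Within replicates 1 and 3 alone, 13 of the 14 called members were again called, and within replicates 2 and 4 alone 7 were, and all 14 kept their direction in both sets. Each set is a part of the libraries that gave the 14 calls, so this is no independent check. RNVU1-19 and RNU6-358P are among the 14 and entered only through the combination libraries, so their calls within these sets carry no weight. Both are in the 13 called within replicates 1 and 3, and RNVU1-19 is in the 7 called within replicates 2 and 4.

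**Figure D1:**
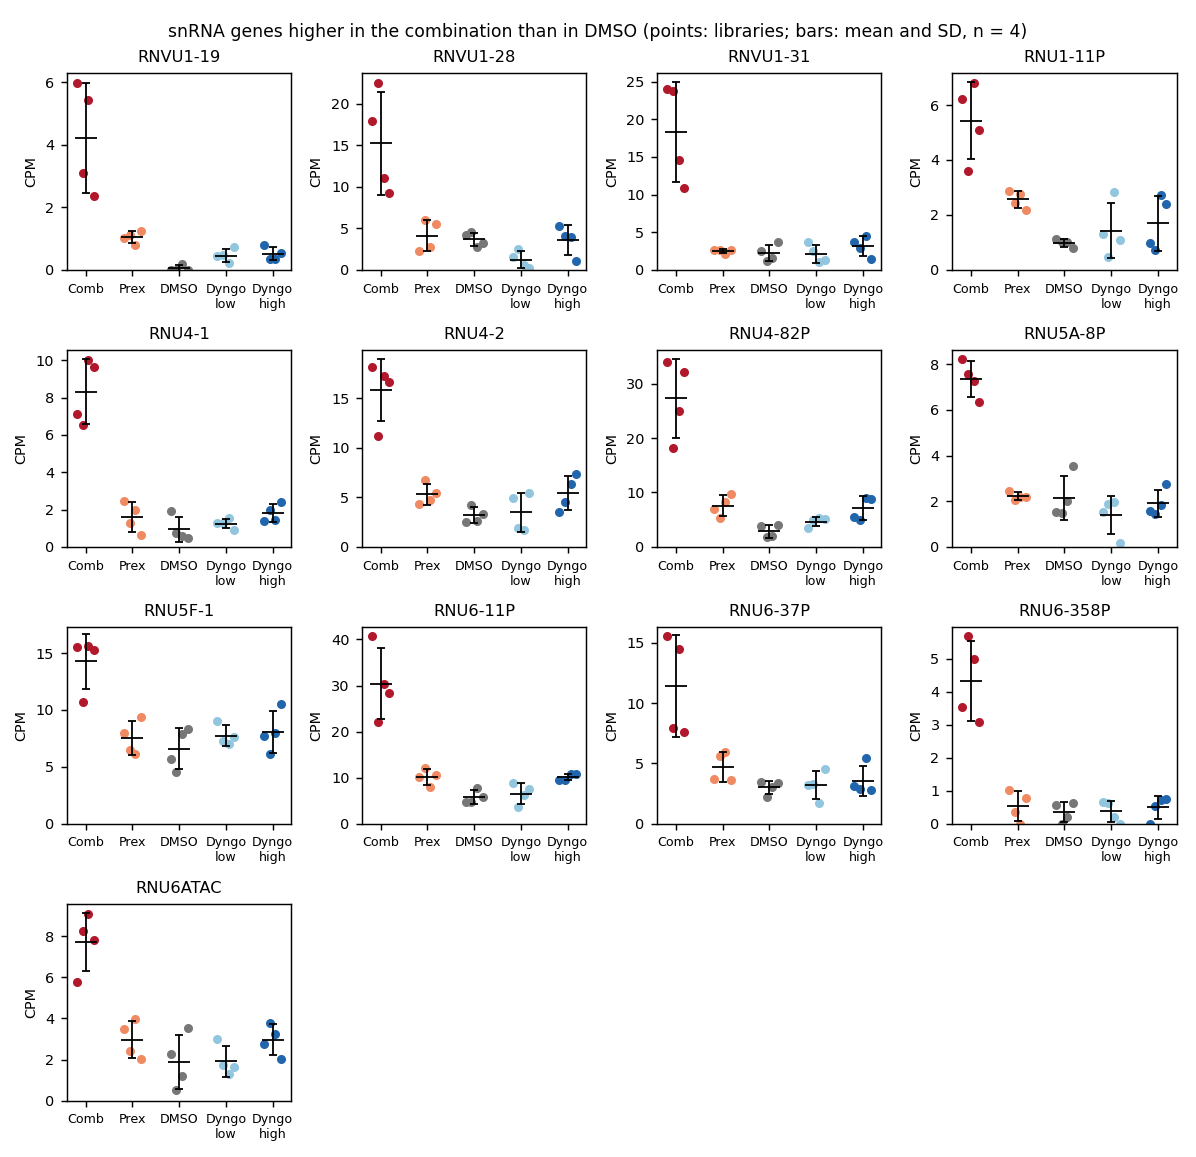
CPM (vertical axes, linear, starting at 0) in each library for the 13 snRNA genes higher in the combination than in DMSO, by group (horizontal axes); Comb is the combination, Prex is prexasertib and Dyngo low and Dyngo high are the doses of Dyngo-4a. Points are libraries and bars are the mean and SD (n = 4). For each of the 13 genes all 4 combination libraries lie above all 4 DMSO libraries. Where a gene passed the filter only through the combination libraries, the filter fixed that separation in advance, so it carries no weight.

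Among the U1 genes, RNVU1-31 had 24.0, 23.8, 14.5 and 10.9 CPM in the combination and 2.47, 1.25, 1.61 and 3.68 CPM in DMSO. Its log2 fold change was 2.95 ± 0.34 (SE), with an adjusted p of 5.25e-08 in edgeR's test. Every combination library was above every DMSO library, and within the combination replicates 1 and 2 were higher than replicates 3 and 4.

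RNVU1-28, which differs from RNU1-1 at few bases (99.4% identity), had 17.98, 22.6, 11.1 and 9.25 CPM in the combination and 4.19, 4.51, 2.82 and 3.20 CPM in DMSO. The log2 fold change was 2.06 ± 0.39 (SE; edgeR adjusted p = 0.000929). The groups did not overlap. RNVU1-28 and RNVU1-31 are 98.2% identical to each other, so their reads may be shared and they are not independent rows. Each is counted separately in the tallies given here. RNU1-11P, a copy within PHACTR1, had 6.21, 3.62, 6.81 and 5.08 CPM in the combination and 1.14, 1.00, 1.01 and 0.80 CPM in DMSO. That was a log2 fold change of 2.43 ± 0.45 (SE; edgeR adjusted p = 0.000331).

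RNVU1-19 had 27, 18, 24 and 13 counts in the combination and 0, 0, 1 and 0 counts in DMSO. After scaling for library size, the ratio of the summed counts was 82.9, with an exact 95% Poisson interval from 14.5 to 3310 that covers counting error only. The row was close to empty in DMSO, so the size of the ratio is poorly fixed.

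Both functional U4 genes, which lie next to each other on chromosome 12, were higher. RNU4-2 had 18.2, 11.2, 17.3 and 16.7 CPM in the combination and 2.47, 4.26, 2.62 and 3.362 CPM in DMSO, a log2 fold change of 2.32 ± 0.30 (SE; edgeR adjusted p = 5.77e-07). RNU4-1 had 7.10, 6.55, 9.99 and 9.61 CPM in the combination and 1.90, 0.75, 0.60 and 0.48 CPM in DMSO, a log2 fold change of 3.12 ± 0.42 (SE; edgeR adjusted p = 1.19e-06). The lowest combination library exceeded the highest DMSO library for each gene.

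RNU4-82P had the smallest adjusted p of any member. It had 34.0, 18.1, 25.0 and 32.1 CPM in the combination and 3.81, 1.76, 2.02 and 4.002 CPM in DMSO. The log2 fold change was 3.18 ± 0.27 (SE; edgeR adjusted p = 3.22e-11), the 14th smallest p of all tested genes. The other U4 copies, RNU4-40P and RNU4-78P, both within introns, had log2 fold changes of -0.01 each.

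Of the 3 U5 genes, 2 rose, and the median log2 fold change over the 3 was 1.08. RNU5A-8P, which keeps the U5 loop sequence that contacts the exons, had 8.21, 7.58, 7.26 and 6.35 CPM in the combination and 1.52, 1.504, 2.02 and 3.52 CPM in DMSO (log2 fold change 1.73 ± 0.37, SE; edgeR adjusted p = 0.00198). RNU5F-1 had 15.5, 10.7, 15.7 and 15.2 CPM in the combination and 5.71, 4.51, 7.86 and 8.33 CPM in DMSO (log2 fold change 1.08 ± 0.22, SE; edgeR adjusted p = 0.00115). RNU5B-1, a functional U5 gene, had 3.995, 5.51, 7.49 and 4.35 CPM in the combination and 6.47, 4.26, 2.42 and 5.28 CPM in DMSO. Those ranges overlapped, and its log2 fold change of 0.19 ± 0.32 (SE) was not called.

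Among the 26 U6 rows, 3 were called higher, RNU6-358P among them. RNU6-11P had 40.8, 22.1, 30.4 and 28.5 CPM in the combination and 4.76, 4.76, 7.86 and 5.76 CPM in DMSO (log2 fold change 2.38 ± 0.22, SE; edgeR adjusted p = 3.38e-10). RNU6-37P, identical to it in sequence, had 15.5, 7.93, 14.5 and 7.62 CPM in the combination and 3.43, 2.26, 3.02 and 3.362 CPM in DMSO (log2 fold change 1.88 ± 0.31, SE; edgeR adjusted p = 5.1e-05). These are not independent rows, since a read from either matches both.

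RNU6-358P, a truncated copy of 75 bases, had 16, 33, 22 and 17 counts in the combination and 3, 0, 1 and 4 counts in DMSO. RNU6-8, whose name is not that of a pseudogene and whose identity to RNU6-1 is 99.1%, had 2.44, 1.38, 3.86 and 0.36 CPM in the combination and 1.14, 0, 2.22 and 1.92 CPM in DMSO. Its groups overlapped (log2 fold change 0.49 ± 0.59, SE) and it was not called, at levels close to the filter.

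Of the minor spliceosome, which removes a rare class of introns, RNU6ATAC rose. It had 5.77, 8.27, 9.08 and 7.80 CPM in the combination and 2.28, 0.50, 1.21 and 3.52 CPM in DMSO (log2 fold change 1.95 ± 0.37, SE; edgeR adjusted p = 0.000472). RNU4ATAC, the partner of U6atac, had 951, 741, 1283 and 1387 CPM in the combination and 407, 668, 1049 and 697 CPM in DMSO. The most abundant row thus overlapped between the groups and was not called (log2 fold change 0.63 ± 0.34, SE; edgeR adjusted p = 0.343).

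RNU6-758P, the row with a run of A, had 258, 48.2, 319 and 296 CPM in the combination and 94.2, 58.2, 109 and 60.0 CPM in DMSO. One combination library lay below all DMSO libraries, and the difference was not called (log2 fold change 1.51 ± 0.62, SE; edgeR adjusted p = 0.181). RNU2-63P was the 1 member called lower. It had 4.66, 4.65, 3.63 and 3.26 CPM in the combination and 5.14, 12.03, 9.87 and 11.1 CPM in DMSO (log2 fold change -1.22 ± 0.29, SE; edgeR adjusted p = 0.00643). RNU2-63P is a divergent U2 copy on chromosome 2 with 77.3% identity to RNU2-1. The 35 members not called had log2 fold changes between -0.58 and 1.71.

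**Figure D2:**
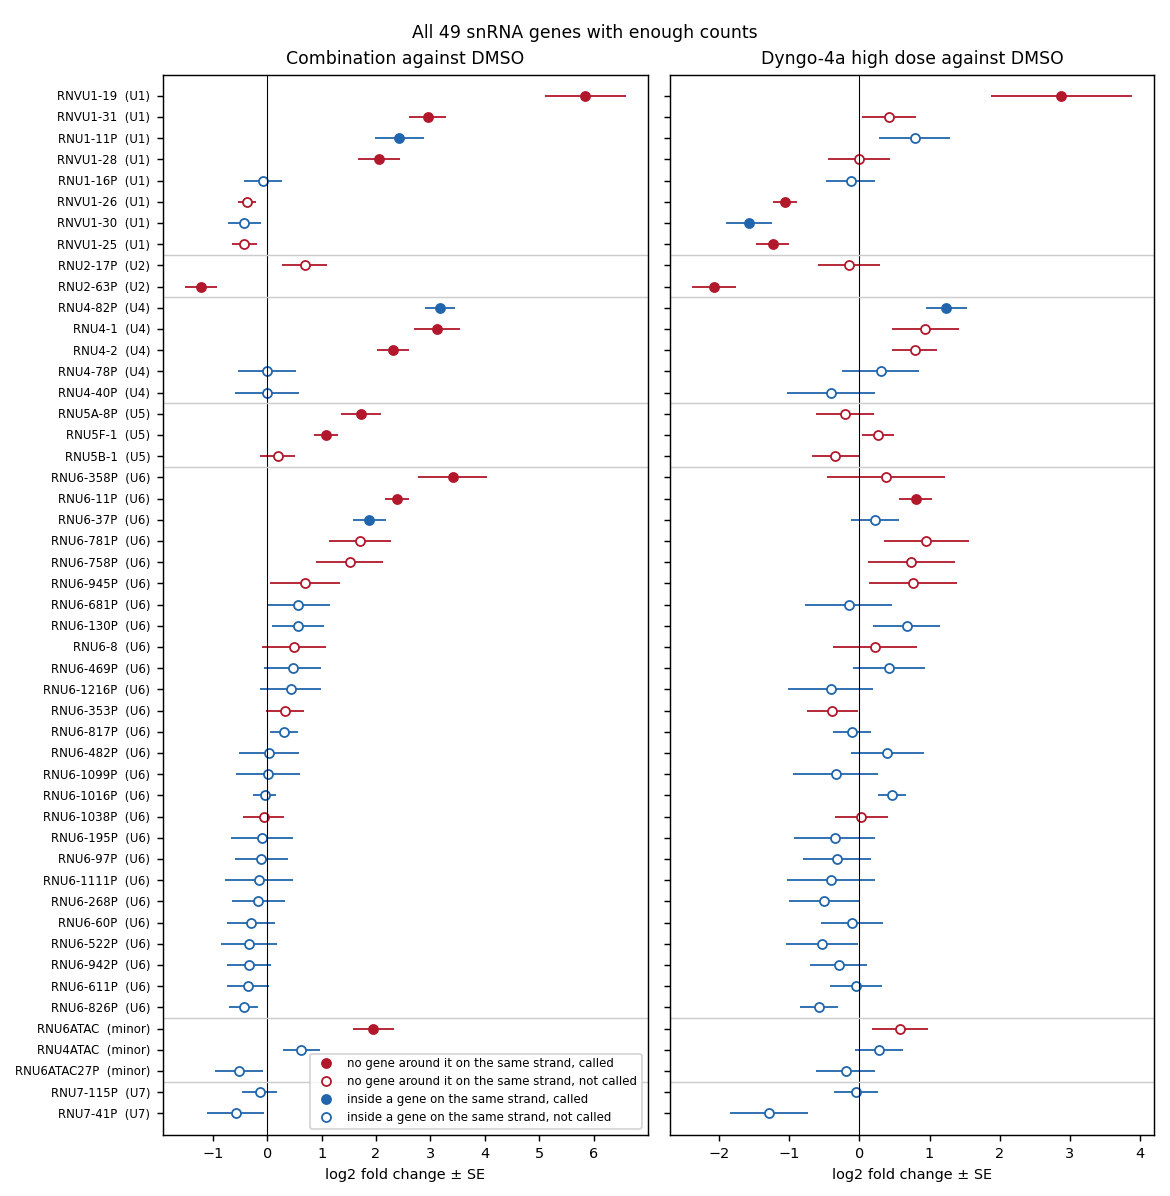
Log2 fold change (horizontal axes) with its standard error for all 49 members (rows, grouped by snRNA type), for the combination against DMSO at left and the Dyngo-4a high dose against DMSO at right; filled points were called, and colour shows whether an annotated gene surrounds the member on the same strand. In the combination 8 of 19 members with no surrounding gene on the same strand were called higher, leaving out RNVU1-19 and RNU6-358P, and 3 of 28 within one were.

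The members called higher differed in where they lie. By GENCODE 29, 28 members lie in an intron of a gene on the same strand, 5 lie within a gene on the other strand only and 16 lie outside annotated genes. In the combination, 10 of the 21 members with no gene around them on the same strand were called higher and 1 lower. Leaving out RNVU1-19 and RNU6-358P, which belong here and entered only through the combination, 8 of 19 were called higher, and their median log2 fold change was 1.08. Of the 28 within a gene, 3 were called higher and none lower, and the median was -0.06. The 3 were RNU1-11P in PHACTR1, RNU4-82P in GOLGA1 and RNU6-37P in KIF1B. RNU6-37P has the sequence of RNU6-11P, which is among the 8 with no such gene, so they are not independent rows.

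None of the genes around these 3 was called. PHACTR1, an actin regulator, had a log2 fold change of -0.10 ± 0.14 (SE; edgeR adjusted p = 0.752) in the combination against DMSO. GOLGA1, a Golgi coiled-coil protein, had -0.01 ± 0.22 (SE; edgeR adjusted p = 0.99), and KIF1B, a kinesin of axonal transport, had -0.07 ± 0.11 (SE; edgeR adjusted p = 0.788). Over the 25 members with 1 tested surrounding gene, 3 members and 3 surrounding genes were called in the combination, with none in common. The surrounding genes called were TBL1XR1, IGF2BP1 and BAZ1A, all lower. Across these 25 pairs the fold changes of member and surrounding gene had a Pearson r of 0.03 and a Spearman rho of 0.05, as a description over pairs measured in the same libraries. In the high dose the same pairs had a Pearson r of 0.52 and a Spearman rho of 0.61, and 1 member and 5 surrounding genes were called, again with none in common.

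The members that rose were also closer in sequence to the reference copies. For each type a short functional element was searched on the gene's own strand, namely the splice-site complement ACTTACCTG for U1, the branch-point complement GTAGTA for U2, the Sm site ATTTTTG for U4 and U4atac, the loop CCTTTTAC for U5, ACAGAGA for U6 and AAGGAGA for U6atac. Leaving out RNVU1-19 and RNU6-358P, which both hold their element, it was present in 10 of the 11 members that rose, with RNU4-82P the exception, and in 17 of the other 34 that have one defined. Where the element was present and no gene surrounded the member on the same strand, 8 of 12 members rose. Where it was present within such a gene, 2 of 15 rose. Identity to the reference copy had a median of 97.7% in 10 members that rose and 82.1% in 33 others. RNU4-1, among the 10, is itself the U4 reference copy, so its identity was fixed in advance. At least 1 stretch of 50 bases was shared with another gene by 9 of the 11 that rose and by 8 of the other 36. The longest run of A ranged from 3 to 10 bases in the 11 and from 2 to 12 bases in the others, and where reads primed was not tested. A read from an intact copy can match more genes, and what part such reads played in the rows that rose was not tested.

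**Figure D3:**
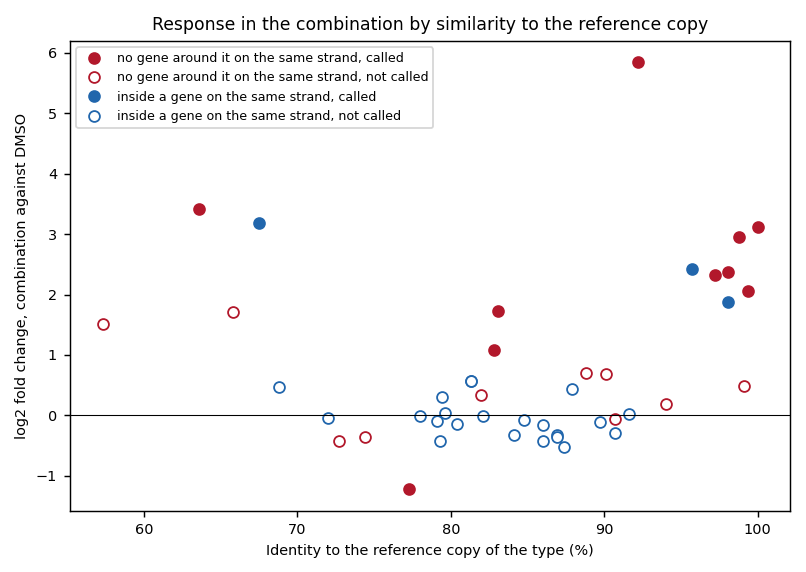
Log2 fold change in the combination against DMSO (vertical axis) by percent identity to the reference copy of the same snRNA type (horizontal axis), for the 45 members with a reference copy; filled points were called and colour shows whether a gene surrounds the member on the same strand. Members called higher had a median identity of 96.4%, or 97.7% without RNVU1-19 and RNU6-358P, and the others 82.1%, with RNU6-358P at 63.6% and RNU4-82P at 67.5% as higher members of low identity.

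In the combination, rows with too few counts to be tested were also higher in sum than in DMSO. The 1782 untested rows included 497 with at least 1 count. Their summed level was 140, 85.5, 137 and 97.2 CPM in the combination and 72.3, 62.2, 77.4 and 60.8 CPM in DMSO, a ratio of the means of 1.69. Every combination library was above every DMSO library, and in both groups replicates 1 and 3 were higher than replicates 2 and 4. The sums in prexasertib (62.0 to 95.4 CPM) and in the low dose (59.8 to 102.4 CPM) overlapped those of the combination. By type, the ratio was 4.36 for U5, 2.36 for U4, 2.26 for U1, 1.56 for U6, 1.44 for U2 and 1.05 for the minor spliceosome. For the high dose over DMSO the ratio over all untested rows was 1.09, and by type it was 2.25 for U5, 1.62 for the minor spliceosome, 1.1 for U6, 1.04 for U1, 0.981 for U4 and 0.828 for U2. The 39 untested rows not named as pseudogenes had a ratio of 2.06 in the combination and 0.676 in the high dose. These ratios carry no test, and no background from the other untested rows of the table is given beside them. The combination libraries held counts for more genes than the DMSO libraries, and the part of that in these sums was not tested. The U5 rows summed to 4.77 ± 1.53 CPM in the combination and 1.10 ± 0.24 CPM in DMSO (SD, n = 4 each), and the U1 rows to 23.8 ± 5.35 CPM in the combination and 10.5 ± 1.01 CPM in DMSO. The untested U7 rows summed to 8.19 ± 2.28 CPM in the combination and 6.84 ± 1.83 CPM in DMSO. RNU5A-1, the reference U5 gene and 1 of the untested rows, had 15, 7, 5 and 19 counts in the combination and 2, 3, 3 and 5 counts in DMSO.

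**Figure D4:**
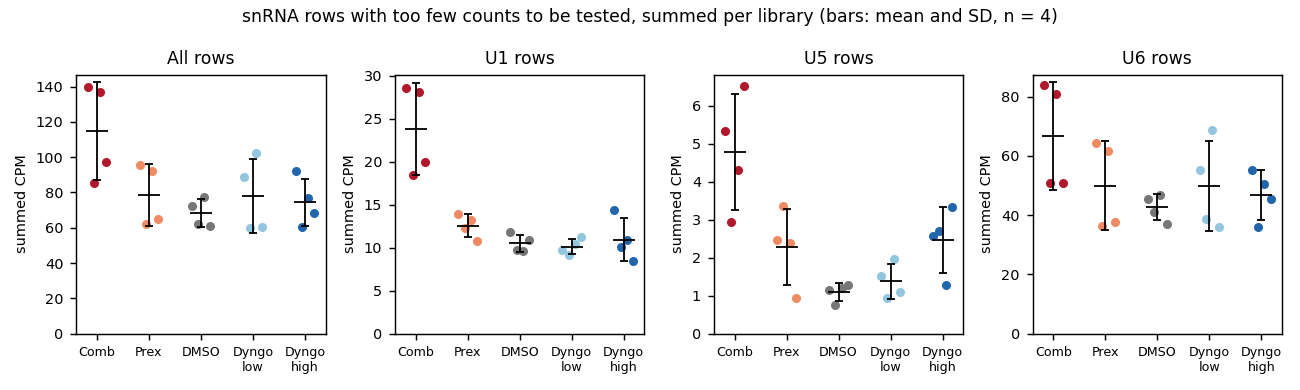
Summed CPM of each library (vertical axes, linear, starting at 0) over the snRNA rows with too few counts to be tested, for all rows and for the U1, U5 and U6 rows, by group; points are libraries and bars are the mean and SD (n = 4). The combination libraries sum to between 85.5 and 140 CPM over all rows and the DMSO libraries to between 60.8 and 77.4 CPM.

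At the edge of the filter stood RNU6-358P and RNVU1-19, each with 127 counts in all and 4 libraries over the minimum. Just outside stood RNVU1-2A, with 148 counts but 3 libraries over the minimum, and RNU2-59P, with 135 counts and 2 such libraries.

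With prexasertib, none of the 49 members was called against DMSO in edgeR, and no tested gene at all was called (0% of 13729). An unadjusted p under 0.05 was found for 5 members (10.2%), where 3.77% of all tested genes had one. All prexasertib libraries lay above all DMSO libraries for 6 members and below them for none, where 1.48% and 1.46% of all tested genes did so. The nearest was RNU4-82P, at 6.96, 5.22, 8.32 and 9.71 CPM in prexasertib and 3.81, 1.76, 2.02 and 4.002 CPM in DMSO, with non-overlapping groups and a log2 fold change of 1.34 ± 0.29 (SE; edgeR adjusted p = 0.171). With the replicate number as a block it was called (log2 fold change 1.36, edgeR adjusted p = 0.00527) and in DESeq2, where it was the 1 member called. Those fits called 0.168% and 0.0437% of all tested genes.

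With the low dose of Dyngo-4a, none was called against DMSO in edgeR, where 0.262% of all tested genes were called, 0.182% higher and 0.0801% lower. An unadjusted p under 0.05 was found for 7 members (14.3%), where 7.57% of all tested genes had one. The groups did not overlap for 1 member higher and 4 lower, where 2.38% and 2.24% of all tested genes did not. DESeq2 called 1 member, where it called 0.41% of genes. With the replicate number as a block 3 members were called lower, where 1.89% of all tested genes were called in that fit, 1.01% of them lower. These were RNU2-63P (log2 fold change -1.24, edgeR adjusted p = 0.00428), RNVU1-25 (-0.59, edgeR adjusted p = 1e-06) and RNVU1-28 (-1.61, edgeR adjusted p = 0.0175). RNU2-63P had 4.32, 4.10, 4.58 and 3.27 CPM in the low dose, below each of the 4 DMSO libraries.

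The combination also differed from each single agent, in comparisons that share the combination libraries with one another and with the comparison against DMSO. Against prexasertib, 12 members were higher and none lower, where 3.44% of all tested genes were called, 2.4% higher and 1.04% lower. Leaving out RNVU1-19 and RNU6-358P, 10 of 47 were higher, against 2.3% of the genes that pass the filter without the combination. Against low-dose Dyngo-4a, 14 were higher and none lower, where 3.85% of all tested genes were called, 2.7% higher and 1.14% lower, and 12 of 47 were higher without these rows, against 2.56% of such genes. These counts are from the fit without a replicate block, although replicate numbers paired libraries in both comparisons. With the block, RNVU1-25 was called lower against prexasertib (log2 fold change -0.33, edgeR adjusted p = 0.00418). So were RNU2-63P (-0.92, edgeR adjusted p = 0.0215) and RNU6-826P (-0.41, edgeR adjusted p = 0.0274). Against the low dose, RNU6-826P was called lower with the block (-0.44, edgeR adjusted p = 0.0207). RNVU1-31 was at 24.0, 23.8, 14.5 and 10.9 CPM in the combination, against 2.66, 2.61, 2.18 and 2.66 CPM in prexasertib, a log2 fold change of 2.84 ± 0.33 (SE; edgeR adjusted p = 1.48e-07). RNU5B-1 was called against the low dose alone (log2 fold change 1.23 ± 0.35, SE; edgeR adjusted p = 0.0366), and that call was lost in 8 of the alternative fits, with adjusted p between 0.0505 and 0.353 there, among them those without low-dose replicate 2 or 4 or combination replicate 2 or 3.

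An interaction term tested whether the change in the combination exceeded the sum of those with prexasertib and low-dose Dyngo-4a on the log2 scale, with the limit that the labels give no doses for the combination. It was called for 3 members, all positive, where 0.284% of all tested genes were called, 0.27% positive and 0.0146% negative. The excess was 2.97 ± 0.53 for RNVU1-31 (SE; edgeR adjusted p = 0.00287) and 3.37 ± 0.64 for RNVU1-28 (SE; edgeR adjusted p = 0.00847). These copies are 98.2% identical to each other and are not independent rows. RNVU1-28 lay lower in the low dose, at 1.51, 2.53, 0.65 and 0.18 CPM, than in any DMSO library, which adds to its excess by construction. RNU6-11P had an excess of 1.41 ± 0.33 (SE; edgeR adjusted p = 0.0405), and it was no longer called on leaving out DMSO replicate 3 or 4, replicate 2 or 3 of the low dose, prexasertib replicate 1, 3 or 4 or combination replicate 1 or 3 (adjusted p between 0.0619 and 0.152). Within replicates 1 and 3 the interaction called 1 member and within replicates 2 and 4 none.

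Against DMSO, 3 members were higher and 4 lower in the high dose of Dyngo-4a, or 14.3% of the members, where 25.2% of all tested genes were called (12.5% higher and 12.7% lower), so the share was below the background. The groups did not overlap for 3 members higher and 4 lower, where 11.8% and 11.5% of all tested genes did not. The median log2 fold change was -0.05 over the members and 0.00 over all tested genes. Within replicates 1 and 3 alone 4 of the 7 were called again, and within replicates 2 and 4 alone 3 were, and all 7 kept their direction in both sets. Those sets are parts of the libraries that gave the 7 calls, so this is no independent check. Marker genes moved in the high dose too, and their part in these results was not tested. Of 9 tested neuroblast markers 4 were higher and 4 lower, with HAND2 at -0.56, GATA2 at 0.87 and CHGA at -0.47 (log2 fold changes). Of 3 tested fibroblast markers PDGFRA (0.56) was higher and COL1A1 (-0.77) lower, and the 6 of that list summed to 90.04 to 104.3 CPM in the high dose and 82.42 to 103.5 CPM in DMSO. Neither the 1 tested Schwann cell marker nor the 1 tested immune and endothelial marker was called.

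The U1 copies that fell, RNVU1-25, RNVU1-26 and RNVU1-30, hold no exact match to the splice-site complement ACTTACCTG. Neither does RNU1-16P, which was not called. RNVU1-25 and RNVU1-26 keep its first bases, ACTTAC, near their start. RNVU1-25, RNVU1-26 and RNVU1-30 have 72.7%, 74.4% and 79.3% identity to RNU1-1. RNVU1-25, the most abundant U1 row, had 70.6, 72.0, 37.9 and 49.8 CPM in the high dose and 151, 150, 112 and 129 CPM in DMSO (log2 fold change -1.23 ± 0.23, SE; edgeR adjusted p = 0.000792). In the low dose it had 85.5, 121, 68.8 and 87.4 CPM, between the other groups with some overlap. RNVU1-26 had 19.9, 11.7, 11.2 and 9.97 CPM in the high dose and 27.4, 29.3, 26.2 and 27.1 CPM in DMSO (log2 fold change -1.06 ± 0.17, SE; edgeR adjusted p = 1.57e-05). RNVU1-25 and RNVU1-26 are 98.1% identical to each other, so their reads may be shared and they are not independent rows.

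RNVU1-30 had 1.97, 2.88, 0.91 and 2.22 CPM in the high dose and 6.47, 7.02, 5.24 and 5.28 CPM in DMSO (log2 fold change -1.57 ± 0.33, SE; edgeR adjusted p = 0.000478). RNU2-63P had 3.16, 1.62, 2.18 and 2.03 CPM in the high dose and 5.14, 12.03, 9.87 and 11.1 CPM in DMSO (log2 fold change -2.07 ± 0.31, SE; edgeR adjusted p = 4.34e-06). In each of these rows all high-dose libraries lay below all DMSO libraries.

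The 3 members that rose in the high dose were a U1, a U4 and a U6 row. RNU4-82P had 5.52, 4.86, 9.07 and 8.86 CPM in the high dose and 3.81, 1.76, 2.02 and 4.002 CPM in DMSO (log2 fold change 1.24 ± 0.29, SE; edgeR adjusted p = 0.00164). RNU6-11P had 9.47, 9.54, 10.9 and 10.7 CPM in the high dose and 4.76, 4.76, 7.86 and 5.76 CPM in DMSO (log2 fold change 0.80 ± 0.24, SE; edgeR adjusted p = 0.0105). RNVU1-19 had 4, 2, 2 and 3 counts in the high dose and 0, 0, 1 and 0 counts in DMSO, a ratio of 10.4 with an exact 95% Poisson interval from 1.52 to 449 that covers counting error only. That call (edgeR adjusted p = 0.0326) was lost when any of DMSO replicates 1, 2 and 4 or high-dose replicates 1 and 4 was left out, with adjusted p between 0.0565 and 0.1 there.

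**Figure D5:**
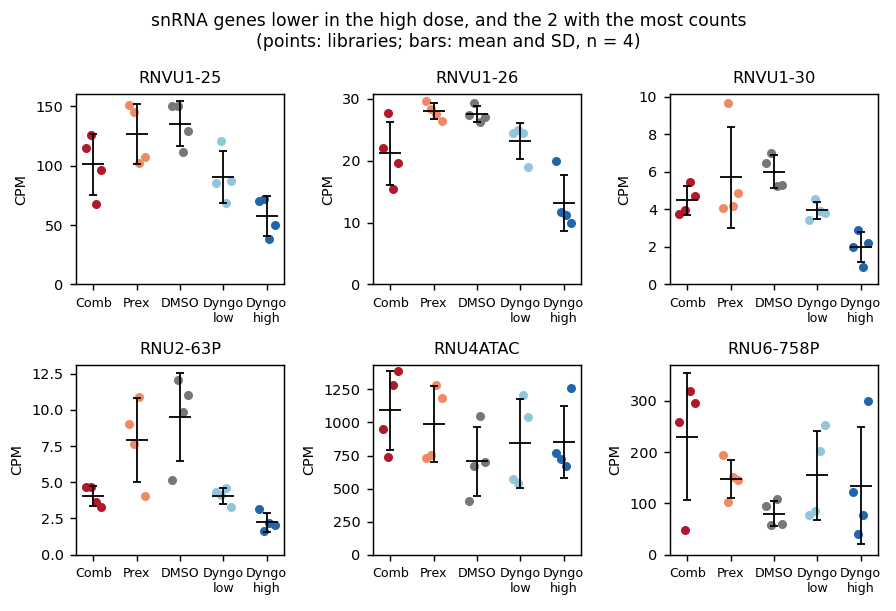
CPM (vertical axes, linear, starting at 0) in each library for the 4 snRNA genes lower in the Dyngo-4a high dose than in DMSO and for RNU4ATAC and RNU6-758P, by group (horizontal axes); points are libraries and bars are the mean and SD (n = 4). All high-dose libraries of the first 4 genes lie below all DMSO libraries, whereas the groups of RNU4ATAC and RNU6-758P overlap.

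Between the doses of Dyngo-4a, 2 members were higher and 2 lower in the high dose than in the low dose, where 20.2% of all tested genes were called, 10.1% higher and 10.1% lower. RNVU1-26 was lower (log2 fold change -0.81 ± 0.18, SE; edgeR adjusted p = 0.000856). RNVU1-30 (-0.98), RNU6-11P (0.65) and RNVU1-28 (1.504) were called with adjusted p between 0.0374 and 0.0431 in edgeR. With the replicate number as a block 9 members were called, 3 higher and 6 lower, where 29% of all tested genes were called in that fit, 14.1% higher and 14.9% lower. RNU6-11P was not called without low-dose replicate 2 or 3 or any 1 high-dose library. RNVU1-28 was not called without low-dose replicate 1, 3 or 4 or high-dose replicate 1, 2 or 3, and RNVU1-30 was not called without low-dose replicate 2, 3 or 4 or high-dose replicate 1, 3 or 4. The count of 4 fell to 2 without low-dose replicate 2 and to 1 without high-dose replicate 3.

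Of 119 tested genes for proteins that make, mature, hold or degrade snRNAs, 1 was higher and 4 lower in the combination, or 4.2%, where 6.3% of all tested genes were called. None of 15 Sm and LSm ring proteins was called against DMSO, and of 30 particle proteins 1 was lower, SNRNP70 of the U1 particle (log2 fold change -0.33 ± 0.10, SE; edgeR adjusted p = 0.0293). Of 12 genes for SNAPc and the little elongation complex, which transcribe snRNA genes, 1 was higher, SNAPC3 (0.34 ± 0.10, SE; edgeR adjusted p = 0.0315). None of 15 Integrator subunits and none of 9 genes of U6 and snRNA 3′ end maturation was called. Of 20 genes for snRNA export, capping and the SMN complex 1 was lower, GEMIN5 (-0.47 ± 0.11, SE; edgeR adjusted p = 0.00454), which recognises snRNA for the SMN complex. Of 18 genes of the RNA exosome, which degrades nuclear RNA, and its adaptors, 2 were lower, EXOSC5 (-0.51 ± 0.12, SE; edgeR adjusted p = 0.00457) and EXOSC2 (-0.35 ± 0.10, SE; edgeR adjusted p = 0.0262). The medians of these lists lay between -0.15 and 0.03 on the log2 scale, against 0.00 for all tested genes.

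In the high dose 9 of the 119 were higher and 22 lower, or 26.1%, where 25.2% of all tested genes were called. Of 15 Sm and LSm proteins 6 were lower and none higher, among them SNRPF (log2 fold change -0.57), SNRPG (-0.66) and LSM3 (-0.43). Of 30 particle proteins 3 were higher and 3 lower, with PRPF6 at 0.48, SNRPA1 at -0.76 and SNRPC at -0.42. SNAPC3 (0.60) and ZC3H8 (0.38) were higher among the 12 transcription genes and none was lower. INTS7 (0.46) was higher and INTS5 (-0.66) lower among the Integrator subunits.

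Of the 20 export and SMN genes 2 were higher and 4 lower in the high dose, with COIL, the Cajal body scaffold, at 0.73, GEMIN5 at -0.70 and WDR77 at -0.50. Of the 9 maturation genes 1 was higher, METTL16 (0.50), which methylates U6, and 3 were lower, among them SSB (-0.41), which binds the end of new polymerase III transcripts, and USB1 (-0.64), which trims U6. Of the 18 exosome genes 5 were lower, among them EXOSC6 (-0.52), EXOSC5 (-0.55) and EXOSC7 (-0.51), and none was higher. All values in this and the previous paragraph are log2 fold changes from edgeR's test against DMSO.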

How the data were processed

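The series holds 20 libraries of IMR-32 cells in 5 groups of 4, made with a 3′ mRNA kit with molecular barcodes and sequenced as single-end reads, per the labels. The deposited values are raw counts per gene, made by the authors on GRCh38; the submitters' processing notes name STAR 2.7.2b, limma 3.50.3, edgeR 3.36.0 and FastQC 0.11.7 without roles. Not given in the sources used here: the annotation release, the counter, its strand setting and the handling of barcodes and of reads matching several places. Every row has a gene identifier, and 58434 of 58787 rows had a symbol in the gene names used here. Of the tested genes, 50 had no symbol and so could not be members.

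Counts were tested in R 4.3.3 with edgeR 4.0.16 (robust quasi-likelihood test) in 1 fit of all 20 libraries, with TMM scaling, filterByExpr (minimum count 10, minimum total 15) and Benjamini-Hochberg adjustment over 13729 genes in each of 8 comparisons, at a threshold of 0.05. CPM are TMM-scaled. Alternatives used DESeq2 1.42.0, limma-voom (limma 3.58.1), other scalings and filters, a replicate block and libraries left out; fits within replicates 1 and 3 and within replicates 2 and 4 were chosen after seeing the data, as were counts without the members that pass the filter only through the combination. The test was tried on simulated data. Positions and sequences came from GENCODE 29, which held all 49 members and 58515 of 58787 identifiers, and identity was computed with Biopython 1.88. Replicate libraries of a group all differed beyond counting noise.

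Replicate numbers were taken as pairing libraries where every same-numbered pair had a correlation of deviations above 0.1. That held for the low dose against DMSO (lowest 0.144), prexasertib against DMSO (0.157), high against low dose (0.11), and the combination against prexasertib (0.115) and the low dose (0.144), and not for the high dose (0.0271) or the combination (0.0274) against DMSO.

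The members and gene lists were chosen with earlier results of these data known. Named members are the 12 with the smallest adjusted p among those called in any comparison and the member with the highest mean CPM of each type. RNU5B-1, RNU6-358P, RNU6ATAC, RNVU1-30, RNU6-8 and the uncalled U4 copies fall outside that rule and were named after their values were seen. From each gene list up to 3 called genes with the smallest p are named. A U6 sequence and a marker gene are not reported here.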

Additional observations from a re-analysis of the deposited data

Results flagged for a closer look

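Over 105 sets of 4 libraries of the named members, 7 held a library far from the other 3 by Dixon's criterion, where chance gives about 1 in 20. RNU4ATAC was at 1260 CPM in high-dose replicate 4 and at 669 to 769 CPM in the other 3. RNU5F-1 was at 10.7 CPM in combination replicate 2 and at 15.2 to 15.7 CPM in the others. RNU6-37P was at 5.44 CPM in high-dose replicate 3 and at 2.77 to 3.16 CPM in the others. RNVU1-19 was at 0.202 CPM in DMSO replicate 3, which is 1 count, and at 0 in the others. RNVU1-26 was at 18.9 CPM in low-dose replicate 4 and at 24.4 to 24.9 CPM in the others. RNVU1-30 was at 9.69 CPM in prexasertib replicate 2 and at 4.09 to 4.86 CPM in the others. RNVU1-31 was at 2.18 CPM in prexasertib replicate 3 and at 2.61 to 2.66 CPM in the others. The interaction term was called for RNVU1-28 (3.37), RNVU1-31 (2.97) and RNU6-11P (1.41), on the log2 scale.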

How the results depend on the processing

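Of 54 calls of a named member in a comparison, 45 were kept under each alternative other than the fits within replicate sets, and over those 941 values 52 lost the call and none changed direction. All 14 calls of the combination against DMSO were kept in the alternatives with all libraries and in those with 1 library left out. Both tallies include calls of the combination for RNVU1-19 and RNU6-358P. These rows passed the filter only through the combination libraries. Whether their calls of the combination were kept therefore carries no weight, here or in the counts that follow. For the low dose against DMSO, where none was called, the count was 2 with no filter, 1 in DESeq2, 3 with the replicate block, 1 with a term for the replicate sets and 1 with the compared groups alone. For prexasertib against DMSO it was 1 with no filter, in DESeq2 and with the replicate block. For the high against the low dose it was 9 with the replicate block and 2 with the compared groups alone. Within replicates 2 and 4 it was 7 for the combination against DMSO, 9 against the low dose, 4 against prexasertib, 3 for the high dose against DMSO and 0 for the interaction, which was 1 within replicates 1 and 3. Leaving out 1 library gave 14 to 15 calls for the combination against DMSO, 13 to 14 against the low dose, 10 to 12 against prexasertib, 6 to 8 for the high dose against DMSO, 1 to 4 against the low dose, 0 to 1 for the low dose (1 without DMSO replicate 1), 2 to 4 for the interaction and 0 to 0 for prexasertib. Leaving out RNVU1-19 and RNU6-358P gave 12 calls for the combination against DMSO, 12 against the low dose and 10 against prexasertib. The cause of these changes was not tested. Where the numbers do not pair libraries, the block gave 17 calls for the combination and 10 for the high dose against DMSO. Calls against prexasertib were lost for RNVU1-19 and RNU6-37P without combination replicate 1, and for RNU6ATAC without prexasertib replicate 2 or 4 or combination replicate 3. Scalings moved the median gene by less than 0.1. Most members had under 5 CPM (32 of 49), so a missed call at this depth does not show that a row did not differ.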

Other observations

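Of 34 tested snoRNA and scaRNA genes, which guide the modification of ribosomal RNA and snRNA, 5 were higher and none lower in the combination than in DMSO, where 3.47% of all tested genes were higher, with a median log2 fold change of 0.47 against 0.00 for all tested genes. SNORD3A, the U3 RNA of ribosomal RNA processing, was at 16.1 ± 2.43 CPM in the combination and 2.51 ± 1.08 CPM in DMSO (SD, n = 4 each; log2 fold change 2.71 ± 0.31, SE; edgeR adjusted p = 3.37e-08). SCARNA11 (1.87) and SNORA11F (0.73) were among the 5. In the high dose 8 of the 34 were higher and 1 lower, where 12.5% of all tested genes were higher and 12.7% lower, with SCARNA14 at 2.14, SNORA11F at 1.20 and SCARNA13 at 0.65. None of 5 other small structured RNAs was called in the combination, and RN7SL1 of the signal recognition particle was lower in the high dose (-0.67).

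The histone list, chosen by symbol, held 47 tested rows, 4 of which are not replication-dependent histone mRNAs, namely H1-10, its antisense RNA H1-10-AS1 and the pseudogenes H2BC19P and H2BC20P. Of the other 43, a class whose mRNAs typically end without a poly(A) tail, 23 were higher in the combination and none lower, where 3.47% of all tested genes were higher, with a median log2 fold change of 1.34. H4C5 was at 20.5 ± 2.09 CPM in the combination and 2.40 ± 0.91 CPM in DMSO (SD, n = 4 each; log2 fold change 3.07 ± 0.31, SE; edgeR adjusted p = 2.02e-09). H2BC8 (2.35) and H2AC6 (1.83) were also called. In the high dose 3 of the 43 were higher and 13 lower, where 12.5% of all tested genes were higher and 12.7% lower. The nuclear RNAs NEAT1 (1.38) and MALAT1 (0.80) were called higher in the combination, and MALAT1 (1.13) in the high dose. Of the marker lists, 1 of 9 tested neuroblast genes was called in the combination, GATA2 (0.73), and none of 3 fibroblast, 1 Schwann cell or 1 immune and endothelial gene.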
